A study of Mus musculus with 10 samples.

Results

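The 8 genes described here encode transcription factors of the enteroendocrine lineage, Neurog3, Neurod1, Insm1, Pax4, Pax6, Isl1, Nkx2-2 and Rfx6. They were chosen by name from the 35275 genes of an RNA sequencing table of isolated jejunal epithelial cells. All 8 genes were found in the table and all 8 were among the 15729 genes that were tested, those with a mean of at least 0.1 FPKM (sequenced fragments of a gene, divided by its length and by the total over all genes of the library) over the libraries. RNA came from 10 adult male C57BL/6 mice of the genotype VillinCreERT2;MYO5Bflox/flox, so every mouse, control mice included, carried the floxed alleles and a Cre recombinase that tamoxifen activates, driven by the villin promoter, which is active in intestinal epithelial cells. The 3 control mice (mice 2, 4 and 5) received corn oil and were not induced. The 4 MYO5B-knockout mice (mice 3, 5, 6 and 7) received a single dose of 2 mg tamoxifen and a vehicle. The 3 LPA-treated MYO5B-knockout mice (mice 1, 4 and 5) received the same tamoxifen dose and lysophosphatidic acid (LPA) at 3 mg/kg for 4 days by intraperitoneal injection. All 10 mice were sampled on day 4, counted from the tamoxifen injection in the induced mice. Tamoxifen and the loss of MYO5B that it induces were present in the same mice, and their effects cannot be told apart. MYO5B is a motor protein that moves membrane vesicles to the apical surface of enterocytes, and the study asked how its loss, and LPA given afterwards, changed the cell types of the epithelium.

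Enteroendocrine cells are scattered hormone-producing cells of the gut epithelium that arise from crypt progenitors. Low Notch signaling in a progenitor permits expression of the basic helix-loop-helix (bHLH) factor Atoh1, which opens the secretory fate, and a brief pulse of Neurog3 then commits the cell to the endocrine lineage. Neurog3 is followed by Neurod1 and Insm1, which carry the differentiation program forward, and by Pax4, Pax6, Isl1, Nkx2-2 and Rfx6, which take part in sorting the cells into hormone-producing types. Because these cells are rare, their regulators reach only low levels in RNA of whole epithelium. In such bulk samples, fewer cells of a type and less RNA per cell cannot be told apart.

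Depth ranged from 10949420 to 24470409 reads on genes, so that for a gene of 1 kb each read was worth 0.0409 to 0.0913 FPKM. Control mouse 2 and MYO5B-knockout mouse 3 gave libraries that stood apart, with 12242 and 12601 detected genes against 17309 to 18267 in the other 8, and with 17.4% and 18% of reads on mitochondrial genes against 1.98% to 3.5%. They are called the few-gene libraries below, and the results on the 8 genes are given with and without them. MYO5B-knockout mouse 3 and LPA-treated mouse 1 had 0 reads on 4 genes of the Y chromosome although the labels give the mice as male, and the label of LPA-treated mouse 1 names the vehicle in one line and LPA in another. Epithelial markers such as Epcam and Vil1 were detected in every library, with 9 of 9 genes tested and a summed level between 14988 and 35102 FPKM.

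All 8 genes were low. Neurod1 had the highest mean over the 10 libraries, 1.24 FPKM, followed by Insm1 with 1.13, Neurog3 with 0.994 and Nkx2-2 with 0.739 FPKM. Isl1, Pax6, Rfx6 and Pax4 followed with 0.343, 0.322, 0.277 and 0.244 FPKM. The ranges of neighbouring genes in this order overlapped for every pair, so that the order of neighbours is not larger than the spread between mice. Between 13.3% (Pax4) and 35.4% (Neurod1) of all tested genes had a lower mean. These levels rest on few reads. Summed over the 10 mice, Insm1 had 678 reads, Neurod1 598, Neurog3 305, Nkx2-2 259, Pax6 217, Rfx6 174, Isl1 157 and Pax4 62. For Neurog3, 0 reads still allowed a level of up to 0.176, 0.178 and 0.146 FPKM (3 reads, counting error only) in the 3 libraries where none was found.

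Neurog3 (ENSMUSG00000044312) lies at chr10:62133090-62134763 on the plus strand of GRCm38 and Rfx6 (ENSMUSG00000019900) at chr10:51677756-51730429 on the plus strand. On chromosome 2 lie Neurod1 (ENSMUSG00000034701, chr2:79452521-79456751, minus strand), Pax6 (ENSMUSG00000027168, chr2:105668900-105697364, plus strand), Insm1 (ENSMUSG00000068154, chr2:146221921-146225020, plus strand) and Nkx2-2 (ENSMUSG00000027434, chr2:147177546-147194243, minus strand). Pax4 (ENSMUSG00000029706) lies at chr6:28442334-28449353 and Isl1 (ENSMUSG00000042258) at chr13:116298281-116309689, both on the minus strand. Neurog3 lies within 2010107G23Rik, a protein-coding gene of the opposite strand, and in the GENCODE M21 annotation the exons of these genes share 273 bases. 2010107G23Rik had 4011 reads over the 10 libraries and was detected in each, including the 3 libraries with 0 reads on Neurog3, where it had 105, 281 and 422 reads. Whether strand entered the counting is not given in the sources used here, so reads of Neurog3 and of 2010107G23Rik cannot be told apart within the shared bases. Neurod1 lies within Cerkl (20 reads, 201 shared exon bases, same strand) and overlaps Gm26755 (2 reads). Pax6 overlaps the antisense gene Pax6os1 (24 reads) and Nkx2-2 overlaps 6430503K07Rik (41 reads), both without shared exon bases in that annotation. Nkx2-2 also overlaps Nkx2-2os, which had 0 reads in every library.

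Neurog3 and Neurod1 are bHLH factors, a class that binds the E-box CANNTG. The RefSeq promoter table for GRCm38.p6 held promoters of 250 bases before to 50 bases after the transcription start for 6 of the 8 genes, all but Insm1 and Pax4. Of 32851 promoters of the same length in that table, 72.3% held at least 1 E-box, and 17.2% held CAGATG or its reverse complement CATCTG, a form of the E-box. Isl1 was the 1 gene of the 8 without overlap between LPA-treated and vehicle-treated mice, where 3.56% of all genes lay wholly higher in LPA-treated mice. The promoters of Neurog3, the first gene of the lineage, of Neurod1, the most abundant of the 8, and of Isl1 are shown 5′ to 3′ on the strand of each gene. E-boxes are in capitals (CANNTG reads the same on both strands). They lie at chr10:62132840-62133139, chr2:79456587-79456886 and chr13:116309639-116309938.
Neurog3: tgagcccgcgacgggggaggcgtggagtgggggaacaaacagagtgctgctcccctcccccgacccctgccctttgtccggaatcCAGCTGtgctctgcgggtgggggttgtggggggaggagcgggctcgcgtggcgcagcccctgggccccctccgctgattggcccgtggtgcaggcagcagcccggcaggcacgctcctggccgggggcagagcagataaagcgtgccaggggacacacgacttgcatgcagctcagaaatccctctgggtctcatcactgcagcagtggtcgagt
Neurod1: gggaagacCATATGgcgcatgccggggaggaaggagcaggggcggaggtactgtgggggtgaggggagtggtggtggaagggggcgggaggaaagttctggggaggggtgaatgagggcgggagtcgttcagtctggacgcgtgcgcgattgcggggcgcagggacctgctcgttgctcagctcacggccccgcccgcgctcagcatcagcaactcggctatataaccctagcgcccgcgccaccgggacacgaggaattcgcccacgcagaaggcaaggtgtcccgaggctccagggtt
Isl1: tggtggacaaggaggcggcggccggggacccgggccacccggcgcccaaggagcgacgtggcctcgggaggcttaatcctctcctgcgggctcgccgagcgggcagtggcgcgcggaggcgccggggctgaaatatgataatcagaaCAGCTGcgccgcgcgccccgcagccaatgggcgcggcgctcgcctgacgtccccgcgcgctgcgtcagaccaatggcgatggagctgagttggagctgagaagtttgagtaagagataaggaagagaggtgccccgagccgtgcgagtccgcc
Neurog3 and Isl1 each held a single CAGCTG, 165 and 103 bases before the start, and Neurod1 a single CATATG 242 bases before it. The Nkx2-2 promoter held 3 E-boxes, one of them CATCTG 220 bases before the start. Of the 2 Pax6 promoters, one held an E-box (CAAATG, 20 bases before the start) and the other held none, and Rfx6 held CATTTG just after its start. These matches describe the letters of the windows and not the binding of any factor.

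Neurog3, which starts the endocrine program, varied widely between mice. It stood at 0, 0.506 and 0.223 FPKM (0, 12 and 6 reads) in control mice 2, 4 and 5. In MYO5B-knockout mice 3, 5, 6 and 7 the levels were 0, 3.01, 2.35 and 0.806 FPKM (0, 80, 74 and 28 reads). LPA-treated mice 1, 4 and 5 had 2.18, 0.863 and 0 FPKM (82, 23 and 0 reads). MYO5B-knockout mice 5 and 6 and LPA-treated mouse 1 were thus the highest, the groups overlapped because each held a mouse at 0, and the group means were 0.243 ± 0.254 (SD, n = 3), 1.54 ± 1.38 (SD, n = 4) and 1.01 ± 1.10 FPKM (SD, n = 3). Both few-gene libraries had 0 reads. Among the other libraries, every MYO5B-knockout mouse lay above both control mice, as was so for 35.5% of all genes tested.

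Insm1, a zinc finger factor that acts with and after Neurog3, stood at 0, 0.754 and 0.976 FPKM (0, 36 and 53 reads) in the control mice. The MYO5B-knockout mice had 0.118, 2.60, 1.25 and 1.54 FPKM (4, 139, 79 and 108 reads). In the LPA-treated mice the level was 2.12, 1.38 and 0.581 FPKM (161, 74 and 24 reads). The 3 MYO5B-knockout libraries with many detected genes again lay above every control mouse, and LPA-treated mouse 5 lay below control mice 4 and 5. Without the few-gene libraries, 35.5% of all genes lay wholly higher in MYO5B-knockout than in control mice. Neurod1, a bHLH factor downstream of Neurog3, was detected in every library but that of MYO5B-knockout mouse 3. Control mice had 0.531, 1.24 and 1.19 FPKM, MYO5B-knockout mice had 0, 1.96, 1.51 and 1.27 FPKM, and LPA-treated mice had 1.02, 1.48 and 2.23 FPKM, from 0 to 92 reads per library. Control mouse 4 (1.24 FPKM) and MYO5B-knockout mouse 7 (1.27 FPKM) differed by little, and the highest value was that of LPA-treated mouse 5, the mouse without a read on Neurog3.

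Pax4, a paired-homeobox factor of early endocrine progenitors, had at most 14 reads in a library. Control mice had 0, 0.332 and 0.333 FPKM, MYO5B-knockout mice 0, 0.466, 0.500 and 0.259 FPKM, and LPA-treated mice 0.0895, 0.464 and 0 FPKM. As with Neurog3, LPA-treated mouse 5 and both few-gene libraries had 0 reads. Pax6, its relative that acts in later endocrine cells, was not low in the few-gene libraries. In each group that held such a library it was highest there, with 0.859 FPKM (42 reads) in control mouse 2, against 0.161 and 0.129 FPKM in control mice 4 and 5, and with 0.413 FPKM (20 reads) in MYO5B-knockout mouse 3, against 0.262, 0.133 and 0.290 FPKM in MYO5B-knockout mice 5, 6 and 7. LPA-treated mice had 0.222, 0.261 and 0.492 FPKM.

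Isl1, a LIM-homeobox factor needed for several hormone-producing cell types, stood at 0, 0.258 and 0.227 FPKM (0, 10 and 10 reads) in the control group. MYO5B-knockout mice had 0, 0.415, 0.214 and 0.388 FPKM (0, 18, 11 and 22 reads). In LPA-treated mice the level was 0.536, 0.620 and 0.776 FPKM (33, 27 and 26 reads), so that every LPA-treated mouse lay above every other mouse. Of all genes, 3.56% lay wholly higher in LPA-treated than in vehicle-treated mice, and 20.5% wholly higher than in control mice. For Rfx6, a winged-helix factor that maintains enteroendocrine cells, control mice had 0, 0.282 and 0.215 FPKM, MYO5B-knockout mice 0, 0.469, 0.368 and 0.167 FPKM, and LPA-treated mice 0.425, 0.301 and 0.542 FPKM. Every LPA-treated mouse lay above every control mouse, as for 20.5% of all genes, by as little as 0.301 against 0.282 FPKM. Nkx2-2, a homeobox factor that specifies endocrine subtypes, was detected in every library. Control mice had 0.384, 0.613 and 0.620 FPKM, MYO5B-knockout mice 1.03, 0.520, 0.923 and 0.523 FPKM, and LPA-treated mice 0.482, 1.09 and 1.20 FPKM, with overlap between all groups.

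**Figure D1:**
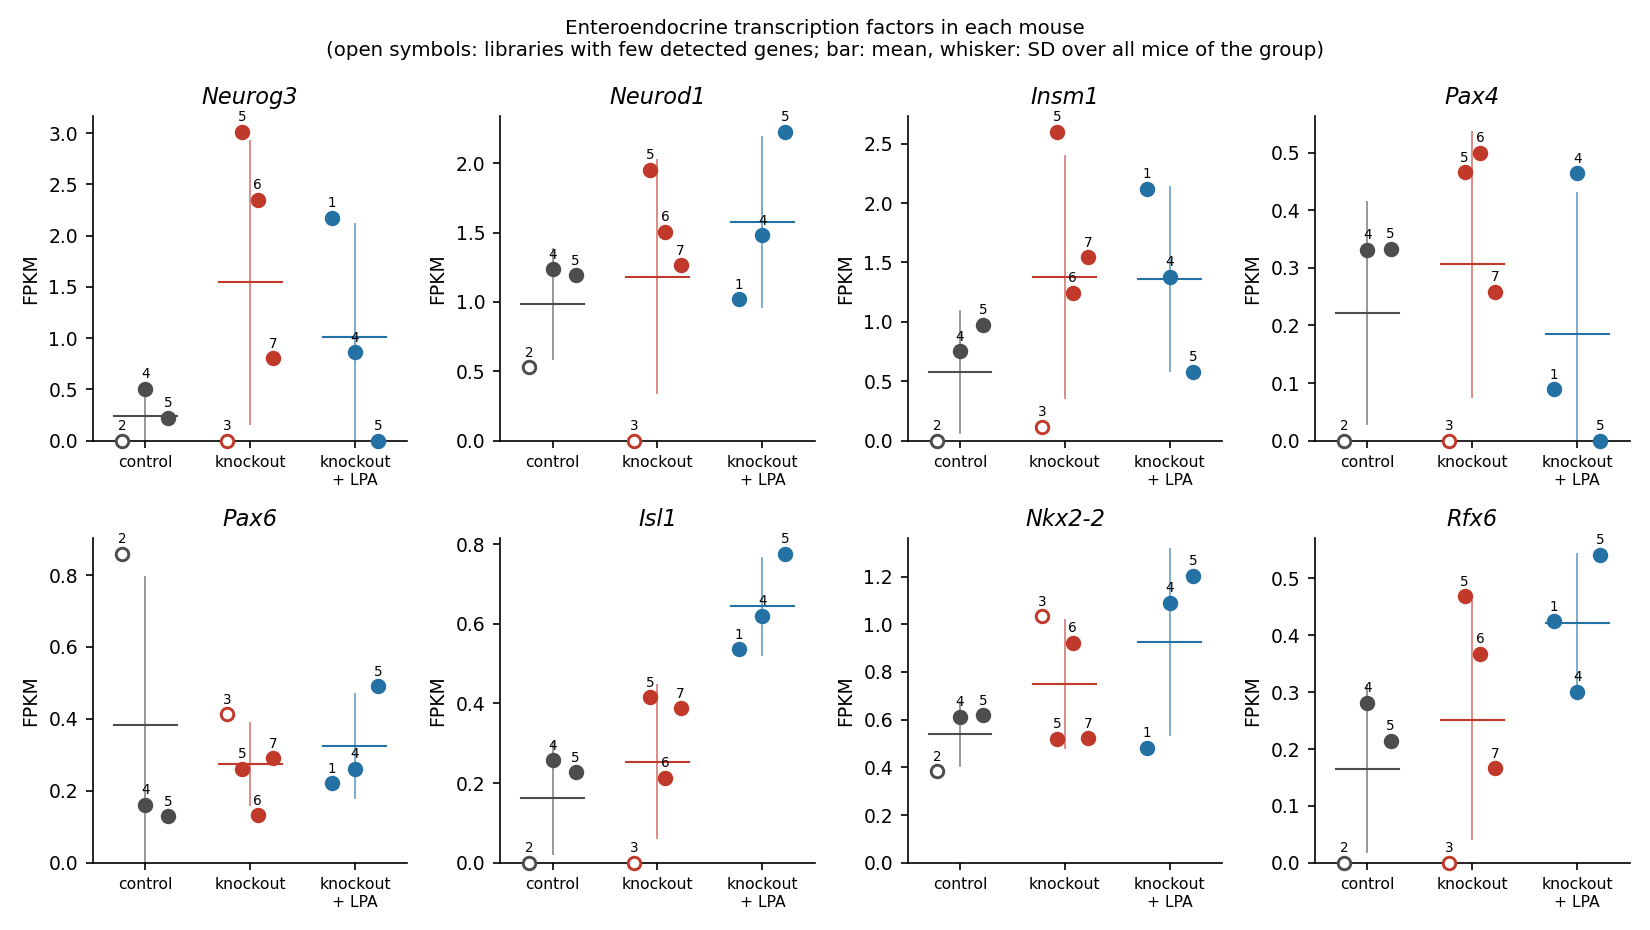
Level of each of the 8 transcription factors in FPKM (y axis, starting at 0, its scale set for each gene) in every mouse of the 3 groups. Points are mice with their numbers, open points are the few-gene libraries, horizontal bars are group means and whiskers the SD over all mice of the group, drawn down to 0 at the lowest. For Isl1 the 3 LPA-treated mice lay above all others, while for Neurog3 each group held a mouse at 0. Of all genes, 3.56% lay wholly higher in LPA-treated than in vehicle-treated mice, and 20.5% wholly higher than in control mice.

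Taking the 8 genes together, the few-gene libraries each detected only 3 of them, Neurod1, Pax6 and Nkx2-2 in control mouse 2 and Insm1, Pax6 and Nkx2-2 in MYO5B-knockout mouse 3. The hormone granule gene Chga, a marker of mature enteroendocrine cells, was nevertheless present in these libraries at 28.1 and 22.8 FPKM, within the range of 20.8 to 47.1 FPKM over all mice. Reads on the 8 genes, divided by all reads on genes (RPM, the depth-scaled unit without gene length), came to 6.07, 10.6 and 10.3 RPM in control mice 2, 4 and 5, and 4.38, 23.6, 16.6 and 13.8 RPM in MYO5B-knockout mice 3, 5, 6 and 7. The LPA-treated mice had 17.7, 16.4 and 16.4 RPM. Among the libraries with many detected genes, both control mice lay below all 6 mice that received tamoxifen. In these libraries 35.5% of all genes lay wholly higher in MYO5B-knockout than in control mice, and 26.3% wholly higher in LPA-treated than in control mice. The share of genes for which both held at once was not counted.

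Between MYO5B-knockout and control mice, none of the 8 genes passed an adjusted p of 0.05 (limma, Benjamini-Hochberg over all 15729 genes), and none had an unadjusted p under 0.05, whereas 2.01% of all genes were called and 17.6% had an unadjusted p under 0.05. On the recovered reads, edgeR and DESeq2 also called 0 of the 8 genes, with 2.82% and 11.8% of all genes called. The largest difference was that of Neurog3, with a log2 fold change of 1.76 (SE 1.35, 95% interval -1.22 to 4.74, limma's adjusted p = 0.537). The ratio of the group mean FPKM, a separate measure on the linear scale, was 6.35. Insm1 followed with 1.24 (SE 1.03, 95% interval -1.03 to 3.52, limma's adjusted p = 0.569). The other 6 genes had log2 fold changes between -0.33 (Neurod1) and 0.39 (Isl1). For Neurod1 the mean FPKM had the opposite direction, 1.18 ± 0.838 (SD, n = 4) in MYO5B-knockout against 0.987 ± 0.396 (SD, n = 3) in control mice, and the log2 difference was 0.68 without MYO5B-knockout mouse 3, which had 0 reads. All these fold changes are on the scale of log2(FPKM + 0.1), which understates changes of genes as low as these. The median over the 8 genes was 0.36, beside 0.29 over all genes tested, and scaling the libraries by median of ratios moved these medians to 0.19 and 0.039. The groups overlapped for all 8 genes, while MYO5B-knockout mice lay wholly above control mice for 11% of all genes.

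Without the few-gene libraries, from 2 control and 3 MYO5B-knockout mice, still none of the 8 genes was called and none had an unadjusted p under 0.05, while 4.95% of all genes were called and 25.8% had an unadjusted p under 0.05. All 8 log2 fold changes were then above 0, as were 60.8% of those of all genes, with a median of 0.33 beside 0.21 over all genes. Neurog3 differed by 2.11 (SE 1.24, 95% interval -0.77 to 4.99, limma's adjusted p = 0.319) and Insm1 by 0.92 (SE 0.55, 95% interval -0.36 to 2.20, limma's adjusted p = 0.327). Neurod1 and Pax6, whose differences in mean log2 value were below 0 with all libraries, differed by 0.33 and 0.39. Neurog3, Neurod1 and Insm1 lay wholly above the control mice in the MYO5B-knockout mice, 3 of 8 genes, and the same held for 35.5% of all genes tested. Without the 2 libraries that lack Y-chromosome reads, the Neurog3 difference was 2.82 (95% interval 0.42 to 5.22, unadjusted p = 0.027, limma's adjusted p = 0.152). Without MYO5B-knockout mouse 3 alone it was also 2.82 (95% interval 0.18 to 5.47, unadjusted p = 0.0391, limma's adjusted p = 0.172). In these fits 25.7% and 26.4% of all genes had an unadjusted p under 0.05 by limma, against 1 of the 8 genes in each.

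LPA-treated and vehicle-treated MYO5B-knockout mice were compared next, to ask whether LPA moved the lineage factors after MYO5B loss. None of the 8 genes passed an adjusted p of 0.05, and neither did any of the 15729 genes (0% called by limma and by edgeR, 0.0381% by DESeq2). An unadjusted p under 0.05 was found for 0 of the 8 genes and for 2.92% of all genes. Isl1 showed the largest difference, a log2 fold change of 1.31 (SE 0.70, 95% interval -0.24 to 2.85, limma's adjusted p = 1), with group means of 0.644 ± 0.122 FPKM (SD, n = 3) in LPA-treated and 0.254 ± 0.191 FPKM (SD, n = 4) in vehicle-treated mice. It was the only one of the 8 genes for which these groups did not overlap, and 3.56% of all genes lay wholly higher in LPA-treated mice. Neurod1 and Rfx6 differed by 0.97 and 0.82, and Neurog3 and Pax4 by -0.60 and -0.59. For Neurog3 the 95% interval ran from -3.58 to 2.38, which leaves the direction undetermined.

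The few-gene library of MYO5B-knockout mouse 3 bore on these values. Without both few-gene libraries, Isl1 differed by 0.78 (SE 0.32, limma's adjusted p = 0.468), the only one of the 8 genes with an unadjusted p under 0.05 (0.0426), as had 10.3% of all genes, and 0% of all genes were called. Isl1 again did not overlap between the groups, and 6.73% of all genes lay wholly higher in LPA-treated mice. Neurod1 then differed by -0.044, while Neurog3 and Pax4 differed by -1.66 and -1.17. LPA-treated mouse 5 had 0 reads on both of these genes. With the few-gene libraries kept, the Neurog3 difference of -0.60 became 0.70 without that mouse and -1.55 without LPA-treated mouse 1. Isl1 differed by 1.41 without LPA-treated mouse 1, and by 0.89 without the 2 libraries that lack Y-chromosome reads (limma's adjusted p = 1 and 0.628).

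Markers of enteric neurons and glia moved with Isl1 in part of the mice. Summed over the 12 genes of this list, of which 6 were tested, they reached 3.43, 18.5 and 23.1 FPKM in LPA-treated mice 1, 4 and 5, between 2.56 and 6.32 FPKM in vehicle-treated MYO5B-knockout mice and between 1.48 and 2.83 FPKM in control mice. The glial gene S100b was present at 0.991, 7.17 and 5.56 FPKM in the LPA-treated mice, against at most 3.79 FPKM in the other groups. The neuronal genes Uchl1, Snap25 and Elavl3 had 34, 130 and 10 reads in LPA-treated mouse 4 and 52, 144 and 12 reads in mouse 5, against 2, 16 and 2 reads in mouse 1 and at most 7, 56 and 3 reads in any other mouse. Vip, a peptide of enteric neurons, had 0 reads in all 10 libraries. Summed stromal markers reached 11.7 and 11.5 FPKM in 2 of the LPA-treated mice, 5.99 FPKM in the other, and at most 7.45 FPKM in control and vehicle-treated mice. In LPA-treated mouse 1, in which the neuron and glia sum was within the range of the vehicle-treated mice, Isl1 was at 0.536 FPKM, above every vehicle-treated and control mouse. The part of such cells in the Isl1 values of mice 4 and 5 was not tested.

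Against control mice, LPA-treated MYO5B-knockout mice again showed 0 of 8 genes past an adjusted p of 0.05 by limma, edgeR or DESeq2, where these tools called 2.32%, 2.4% and 9.56% of all genes. These values share the LPA-treated mice with the preceding comparison and the control mice with the first. Isl1 had a log2 fold change of 1.70 (SE 0.75, 95% interval 0.047 to 3.35, limma's adjusted p = 0.292) and was the only one of the 8 genes with an unadjusted p under 0.05 (0.0449), beside 16.4% of all genes. Insm1, Rfx6 and Neurog3 differed by 1.54, 1.16 and 1.16, and Pax4 by -0.27. Isl1 and Rfx6 lay wholly above the control mice, 2 of 8 genes, as did 20.5% of all genes. Without the few-gene libraries Isl1 differed by 1.11 (SE 0.36, limma's adjusted p = 0.101), Pax6 by 0.74 and Pax4 by -0.97. In those libraries 8.56% of all genes were called and 27.2% had an unadjusted p under 0.05, against 0 and 1 of the 8 genes, and Isl1, Rfx6 and Pax6 lay wholly above the control mice beside 26.3% of all genes.

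**Figure D2:**
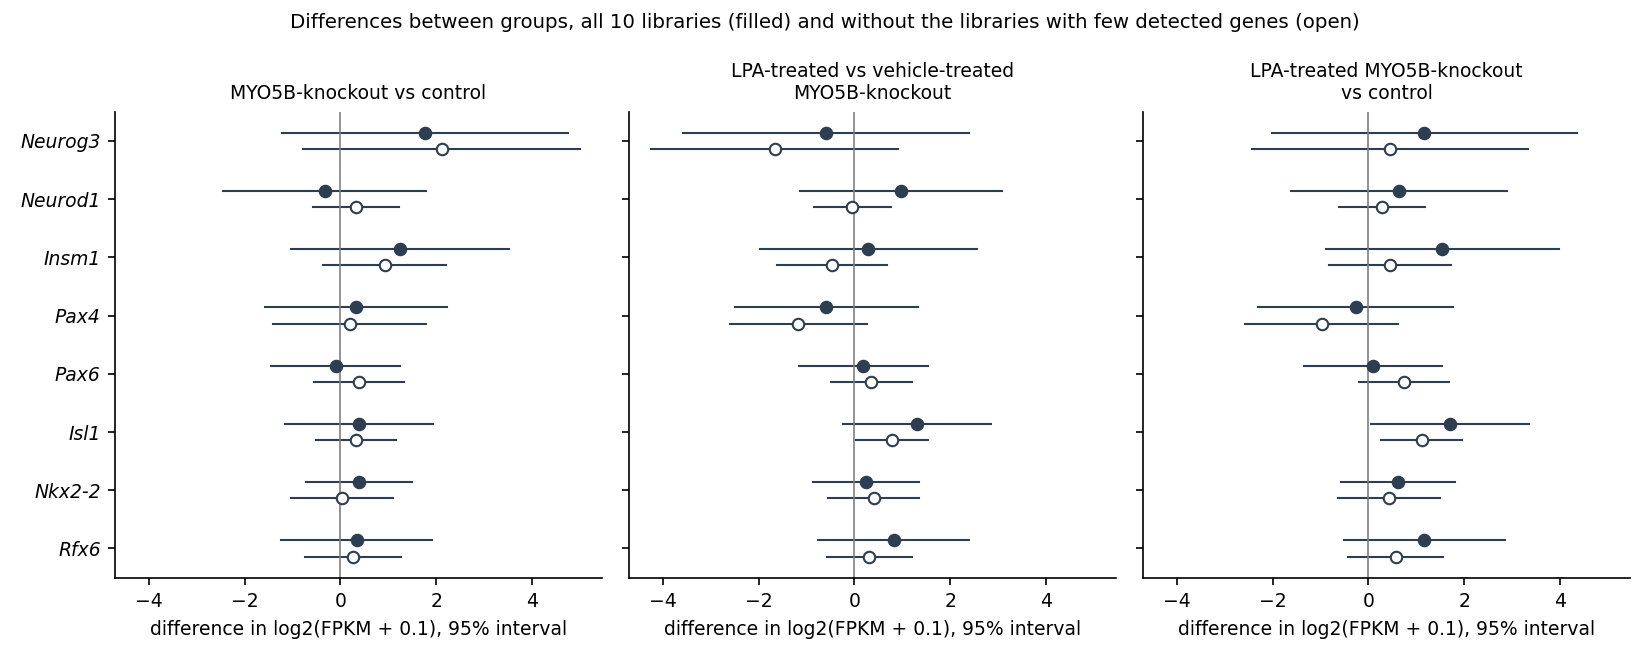
Difference in log2(FPKM + 0.1) for each of the 8 genes (rows) in the 3 comparisons (panels), with its 95% interval from limma. Filled points use all 10 libraries and open points leave out the few-gene libraries. With all libraries, 0 lies outside the interval for 1 of the 24 differences, that of Isl1 between LPA-treated MYO5B-knockout and control mice (0.047 to 3.35).

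The 8 genes did not vary together over the mice. Over the 8 libraries with many detected genes, the log2 values of Neurog3 and Insm1 had a Pearson correlation of 0.86, and those of Pax6 and Isl1 of 0.89. Neurog3 and Neurod1 had one of -0.28, Pax4 and Isl1 of -0.64, and Insm1 and Nkx2-2 of -0.59. These points share group and depth, and each correlation is a description of the libraries. LPA-treated mouse 5 held both ends of this pattern. It had 0 reads on Neurog3 and Pax4 and the lowest Insm1 level of the 8 libraries (0.581 FPKM), and the highest levels of Neurod1, Isl1, Nkx2-2 and Rfx6 (2.23, 0.776, 1.20 and 0.542 FPKM). With all 10 libraries, the 2 few-gene libraries set several correlations, for example 0.91 between Isl1 and Rfx6, which was 0.50 without them, and -0.39 between Pax6 and Isl1.

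**Figure D3:**
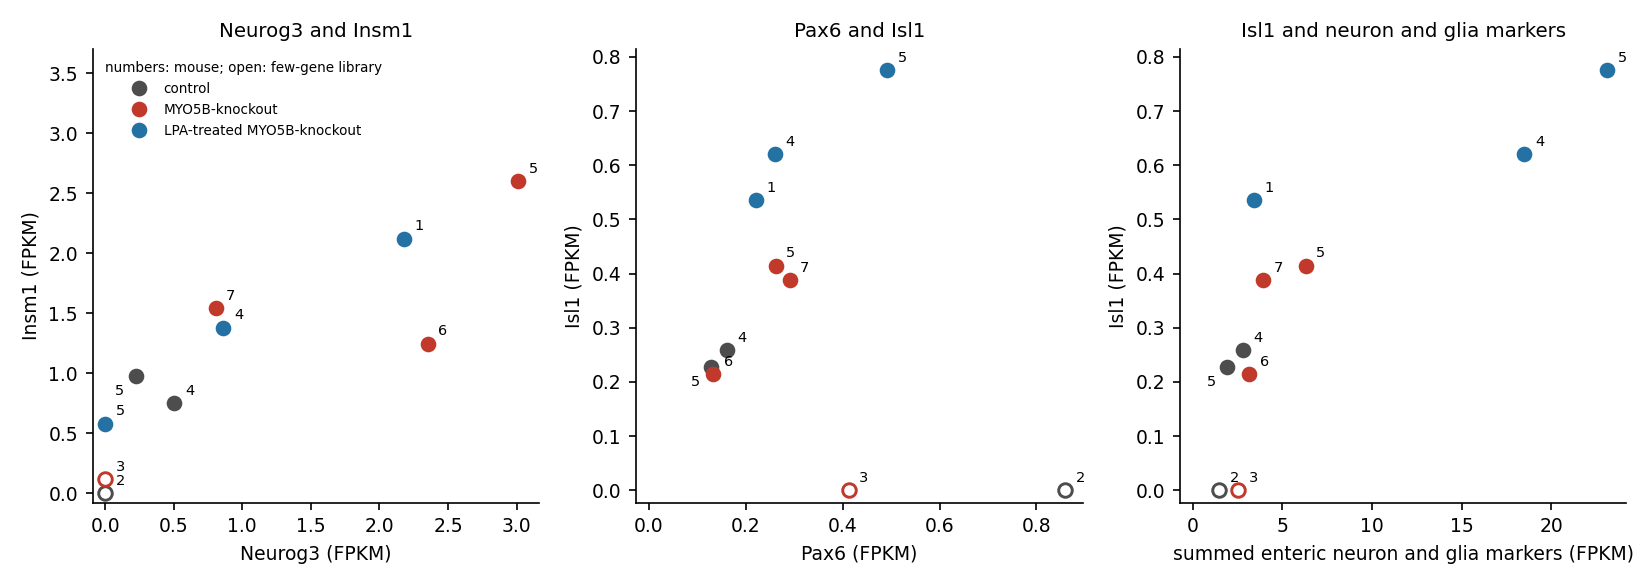
Levels in FPKM of Neurog3 against Insm1, of Pax6 against Isl1, and of the summed 12 enteric neuron and glia markers against Isl1. Each point is a mouse with its number, colours are the 3 groups and open points the few-gene libraries. Among the filled points, Neurog3 and Insm1 were both lowest in LPA-treated mouse 5 (0 and 0.581 FPKM) and both highest in MYO5B-knockout mouse 5 (3.01 and 2.60 FPKM), and LPA-treated mice 4 and 5 stand apart in the marker sum at 18.5 and 23.1 FPKM.

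Genes whose log2 values followed Neurog3 most closely over the 8 libraries were Tom1l1, Upf1, Dhx32, Lrch3 and Xpnpep3, with Pearson correlations between 0.986 and 0.996, the highest among 15729 genes. With all 10 libraries they included Dph2, Gm11457, Glmn and Zfp433 (0.976 to 0.982). The mean of the other 7 factors was followed most closely by Ngly1, Ms4a15, Spag1, Gm27010 and Tctn2 over 8 libraries (0.963 to 0.975). Over all 10 these were 2610301B20Rik, Spag1, Gm12940, Pik3ip1 and Zfp131 (0.984 to 0.992). Of the genes named, none stood in both lists of Neurog3, and Spag1 stood in both lists of the other 7 factors.

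Other known regulators of the lineage were counted in the same way. Of 16 such genes, 11 were tested, and between MYO5B-knockout and control mice 0 were called, with a median log2 fold change of 0.45 and 8 of 11 above 0. Over all genes tested the median was 0.29, and 63.4% were above 0. Among the largest differences were those of Tox3 (1.87) and Foxa1 (1.59). Foxa1, a forkhead factor that acts in endocrine and goblet cells, stood at 0.568, 2.81 and 2.13 FPKM in the control group. MYO5B-knockout mice had 1.15, 9.71, 7.61 and 6.06 FPKM, and LPA-treated mice 7.23, 6.64 and 6.19 FPKM. Without the few-gene libraries, Foxa1 was higher in MYO5B-knockout mice (1.61, SE 0.26, limma's adjusted p = 0.0231) and in LPA-treated mice (1.41, SE 0.26, limma's adjusted p = 0.0227), each against control mice. It was the 1 gene called of 11, beside 4.95% and 8.56% of all genes called in these comparisons. With all libraries its adjusted p was 0.29 and 0.22, and it was called in 0 of the 10 fits that left out 1 mouse. A covariate for the few-gene libraries gave Foxa1 an adjusted p of 0.00909 and 0.0248 in limma, and DESeq2 gave 0.0545 and 0.0437. The covariate fit called 2449 and 1800 of all 15729 genes, and DESeq2 11.8% and 9.56% of them. By edgeR the adjusted p of Foxa1 was 0.18 and 0.179 with all libraries, and 0.0106 and 0.0102 without the few-gene libraries. Without them, edgeR called 1151 and 1689 of all genes. In limma with all libraries the adjusted p of Foxa1 was 0.153 and 0.0974 under quantile normalization, and 0.212 and 0.16 under median-of-ratios scaling.

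Genes upstream of Neurog3 were those of secretory progenitors and of the Notch pathway. Of 14 genes, 12 were tested and 0 were called between MYO5B-knockout and control mice, with a median of -0.14 and 5 of 12 above 0 (without the few-gene libraries -0.19 and 5 of 12, with 0 called). Of all genes tested, 63.4% were above 0, and 60.8% without the few-gene libraries. The largest differences were those of the receptor Notch2 (1.28, limma's adjusted p = 0.147), the ligand Jag1 (0.88) and the protease Adam10 (0.56). Atoh1 stood at 1.30, 5.72 and 6.13 FPKM in the control group, against 0.131, 8.06, 6.89 and 6.56 FPKM after MYO5B loss, a difference of -0.27 with all libraries and 0.27 without the few-gene libraries. Hes1, a Notch target that represses Atoh1 and Neurog3, stood at 28.5, 21.4 and 23 FPKM in the control group, against 48.5, 23, 13.9 and 18.5 FPKM after MYO5B loss, a difference of -0.057 (limma's adjusted p = 0.96).

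Hormones, granule proteins and processing enzymes are the products that the 8 factors serve. Of 24 genes, 22 were tested, and between MYO5B-knockout and control mice 1 was called, with a median log2 fold change of -0.27 and 8 of 22 above 0 (without the few-gene libraries -0.12 and 10 of 22, again with 1 called). The shares of all genes above 0 were 63.4% and, without the few-gene libraries, 60.8%. The shares of all genes called were 2.01% and, without those libraries, 4.95%. Sst, which encodes the inhibitory hormone somatostatin, stood at 70.3, 64.8 and 94.3 FPKM in the control group. MYO5B-knockout mice had 23, 18.8, 18.5 and 28.3 FPKM, all below the control group, as was so for 6.2% of all genes. Sst fell by 1.78 on the log2 scale (SE 0.32, limma's adjusted p = 0.0259), and by 1.86 without the few-gene libraries (limma's adjusted p = 0.0391). With each of the 7 mice compared left out in turn, Sst was called in 3 fits, and its adjusted p was 0.0752 and 0.124 without control mice 4 and 5 and 0.0872 and 0.0792 without MYO5B-knockout mice 5 and 6. With only these 2 groups in the fit it was 0.0537. Pcsk1n (-2.52), Gip (-2.20) and Sst had the largest differences of the list, and Gip was at 768 FPKM in control mouse 2 against 183 and 256 FPKM in the other control mice.

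Between LPA-treated and vehicle-treated MYO5B-knockout mice, 19 of 22 product genes were above 0 and 0 were called, with a median of 0.74 beside 0.11 over all genes. Without the few-gene libraries 17 of 22 were above 0, with a median of 0.73 beside -0.11, and 0 were called. Of all genes, 60.7% were above 0 with all libraries and 41.5% without the few-gene libraries. Summed product levels were 577, 933 and 1347 FPKM in LPA-treated mice 1, 4 and 5. In vehicle-treated mice they were 412 to 974 FPKM, or up to 617 FPKM without the few-gene libraries. LPA-treated mice 4 and 5 also had the highest neuron and glia sums, and the part of such cells in the product values was not tested. Sst was at 33.8, 57.1 and 77.1 FPKM in LPA-treated mice, above every vehicle-treated mouse, as was so for 3.56% of all genes. Its log2 fold change was 1.27 (SE 0.32, limma's adjusted p = 1). The medians of the other regulators and of the progenitor and Notch genes were 0.16 and 0.21 in this comparison, with 0 called in each. Against control mice, LPA-treated mice had medians of 0.40 over the products, 0.81 over the other regulators and 0.21 over the progenitor and Notch genes, beside 0.41 over all genes, with 0 called in each with all libraries.

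**Figure D4:**
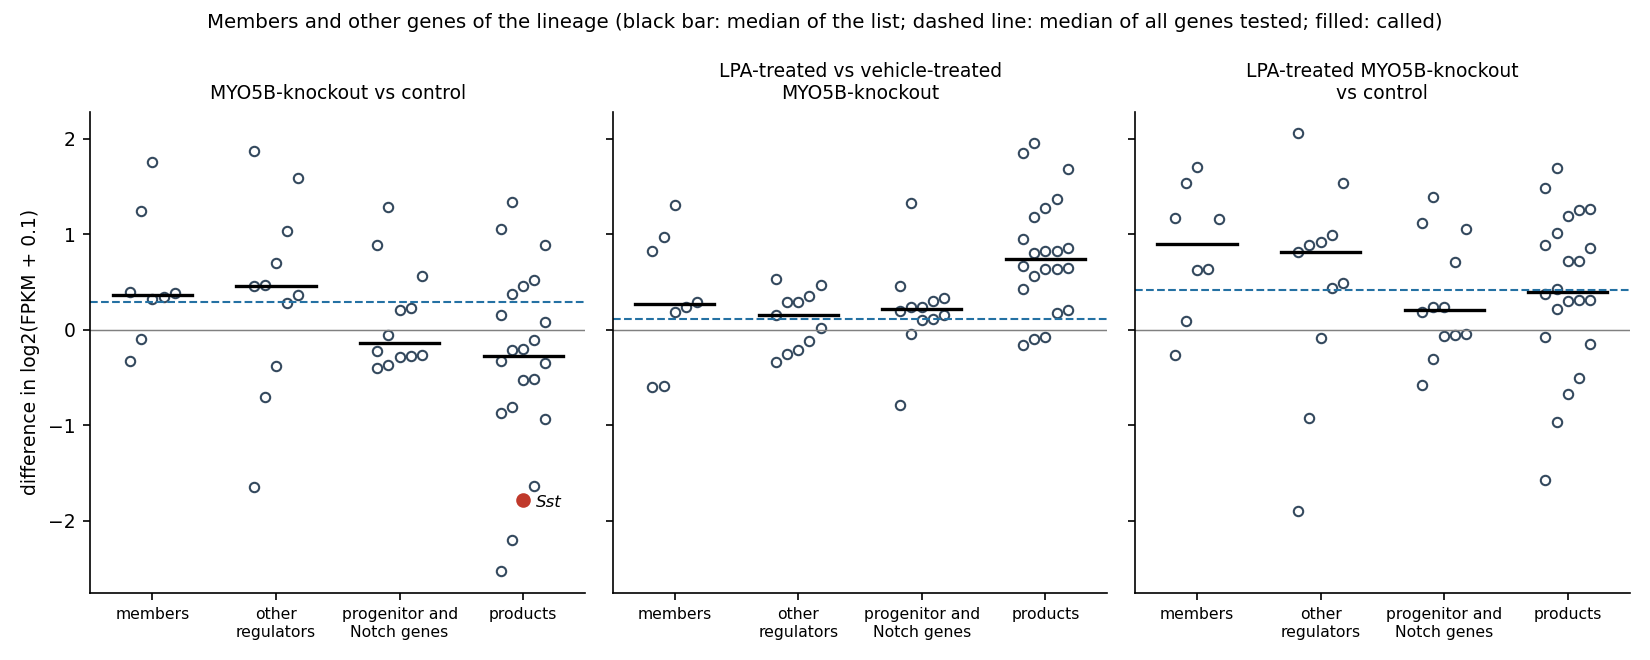
Differences in log2(FPKM + 0.1) of the tested genes in 4 lists (8 members, 11 other regulators, 12 progenitor and Notch genes, 22 products) in the 3 comparisons, with all libraries. Each point is a gene, black bars are list medians, the dashed line is the median of all 15729 genes and the filled point a gene called at an adjusted p of 0.05. Sst, at -1.78, is the 1 called gene. Over all genes, 2.01%, 0% and 2.32% were called, in the order of the panels.

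Markers of other epithelial and non-epithelial cells were summarized for the same comparison. Proliferation markers were above 0 in MYO5B-knockout against control mice for 10 of 10 genes (median 1.21, 0 called), with sums of 218 to 337 FPKM against 98.6 to 123 FPKM. Of all genes tested, 63.4% were above 0 and 2.01% were called in this comparison. Tuft and leukocyte markers had medians of -0.99 over 6 genes and -2.11 over 9 genes, with Gzma called lower among the latter. Leukocyte sums lay between 48 and 944 FPKM in MYO5B-knockout and between 1453 and 2365 FPKM in control mice. Enterocyte markers had a median of -0.97 over 10 genes, with Lct called lower, goblet markers one of -0.089 over 6 genes and Paneth markers one of -0.62 over 6 genes. The medians of epithelial, ileal, stromal, and neuron and glia markers were -0.14, 1.69, -0.61 and 0.73, with 0 called in each. Without the few-gene libraries no leukocyte marker was called (limma's smallest adjusted p = 0.0719). Lct and Slc5a1 of the enterocyte and Sh2d6 of the tuft markers were then called lower in MYO5B-knockout mice. Aurka of the proliferation, Agr2 of the goblet and Slc10a2 of the ileal markers were called higher, and 4.95% of all genes were called. The medians were then 1.37 for proliferation, -1.23 for tuft, -2.27 for leukocyte, -0.88 for enterocyte and -1.16 for Paneth markers. The part of these differences in the levels of the 8 factors was not tested.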

How the data were processed

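Poly-A RNA of jejunal epithelial cells, isolated mechanically with EDTA, was sequenced from 10 mice. Per the labels, the submitters' processing notes name STAR 2.5, TopHat, HTSeq 0.6.1, DESeq2 and GRCm38/mm10. The authors deposited FPKM per gene, with gene length and coordinates, and lists of genes with counts and fold changes of their own comparisons, of which only the counts were used, as a check. FPKM multiplied by gene length gave whole reads for 100% of values within 0.05 read, and 63 of 63 deposited counts equalled the recovered reads. Groups came from sample titles. Differences in log2(FPKM + 0.1) were tested two-sided with limma 3.58.1 (R 4.3.3, trended variance) in a single model of 3 groups over 15729 genes whose mean FPKM reached 0.1, with Benjamini-Hochberg adjustment. edgeR 4.0.16 (quasi-likelihood) and DESeq2 1.42.0 were run on recovered reads. Other pseudocounts, filters and scalings, leaving out mice, and a replicate block were alternatives. The fits were tested on simulated data. The 8 genes and all lists were chosen with earlier results of these data known. The text names the 8 genes, list genes that were called (up to 5), the 3 largest differences of each lineage list, the 5 genes most like Neurog3 or the other 7, and genes overlapping the 8, and adds Chga, Atoh1, Hes1, S100b, Uchl1, Snap25, Elavl3 and Vip for their known roles after their values were seen. A few genes that this rule names are not reported here.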

Additional observations from a re-analysis of the deposited data

How the results depend on the processing

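None of the 8 genes was called in any of the alternatives of the 3 comparisons (24 each), in which the smallest adjusted p was 0.152 between MYO5B-knockout and control mice, 0.423 between LPA-treated and vehicle-treated MYO5B-knockout mice and 0.101 between LPA-treated and control mice. Of 558 values of the 8 genes under these alternatives, 39 changed sign, and 11 of 24 differences never did; where no construction is named, the cause was not tested. Between MYO5B-knockout and control mice, Pax6 became 0.39 without the few-gene libraries, 0.0088 with a covariate for them and 0.47 by edgeR without them (edgeR without these libraries was added after seeing the data). Neurod1 became 0.33 without the few-gene libraries, 0.16 by edgeR without them, 0.68 without the libraries lacking Y reads and 0.048 with a pseudocount of 1, and Nkx2-2 became -0.11 by edgeR without the few-gene libraries. With 1 mouse left out, this comparison ran from -0.26 to 0.85 for Rfx6, -0.47 to 0.56 for Pax6, -0.38 to 0.90 for Pax4, -0.77 to 0.68 for Neurod1 and -0.20 to 0.92 for Isl1. Between LPA-treated and vehicle-treated mice, Insm1 became -0.063 under quantile normalization, -0.47 without the few-gene libraries, -0.32 by edgeR without them, -0.50 with a covariate for them and -0.85 without the libraries lacking Y reads, Pax6 became -0.18 under quantile normalization, and Neurod1 became -0.044 without the few-gene libraries. With 1 mouse left out, Pax6 ran from -0.081 to 0.36, Neurod1 from -0.044 to 1.41, Neurog3 from -1.66 to 0.70 and Insm1 from -0.47 to 0.76. Between LPA-treated and control mice, Pax6 became -0.028 with a pseudocount of 1, -0.23 under median-of-ratios scaling, -0.52 under quantile normalization, -0.80 by edgeR and -0.88 by DESeq2, and Neurod1 became -0.24 with the covariate. With 1 mouse left out, Pax6 ran from -0.29 to 0.74 and Pax4 from -0.97 to 0.30. Only 2 of the 8 genes passed a filter at a mean of 1 FPKM, so the others had no value there.

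Counts over all genes moved more. The 316 genes called between MYO5B-knockout and control mice became 188 without a filter on low values, 598 under median-of-ratios scaling, 804 under quantile normalization, 50 with only these groups in the fit, 778 without the few-gene libraries, 2449 with a covariate for them, 1854 by DESeq2, 1151 by edgeR without those libraries, and 44 to 403 with 1 mouse left out. Of the 316, 177 were higher and 139 lower, against 224 and 374 under median-of-ratios scaling. The 365 genes called between LPA-treated and control mice (243 higher, 122 lower) became 626 under quantile normalization, 190 with only these groups, 1346 without the few-gene libraries, 1800 with the covariate, 1503 by DESeq2, 1689 by edgeR without those libraries, and 73 to 702 with 1 mouse left out, and under median-of-ratios scaling 221 were higher and 268 lower.

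Mouse numbers recur between groups, but the labels do not state that they pair mice, so the numbers were not taken as pairs. Deviations from the group mean had correlations of 0.104, 0.300, -0.355 and -0.214 between same-numbered mice. Mice of different numbers ranged from -0.499 to 0.546, the latter between the few-gene libraries, so these values can neither show nor exclude pairing. With the replicate number as a block (consensus correlation -0.0241), 302, 0 and 311 genes were called in the 3 comparisons and 0 of the 8 genes, with Neurog3 at 1.75 between MYO5B-knockout and control mice (limma's adjusted p = 0.542) and Isl1 at 1.71 between LPA-treated and control mice (limma's adjusted p = 0.298).

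The depth limits these values, since Pax4 rests on 62 reads and Isl1 on 157 reads in all, and with all libraries the intervals of Neurog3 span both directions in the 3 comparisons.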
